A study of Mus musculus with 6 samples.

Results

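Red blood cells and striated muscle each carry a few miRNAs that are scarce in hepatocytes, and 6 of them were followed here in vesicles released by primary mouse hepatocytes. They were picked by row name, as possible cargo from other cells, when earlier results of these data were already known, so the tests on them below are no independent evidence. They are 6 of the 1976 mature mouse miRNAs in the deposited table. The erythroid set is mmu-miR-451a, mmu-miR-486a-5p and mmu-miR-144-3p, and the striated muscle set is mmu-miR-206-3p, mmu-miR-1a-3p and mmu-miR-133a-3p, written below without the species prefix. Small RNA was sequenced from the vesicles, which the labels call exosomes, of wild type C57BL/6J hepatocytes in 2 groups of 3 libraries. The PA group had been given 600 µM palmitic acid, the common dietary saturated fat with which cultured liver cells are made steatotic, and the control group 0 µM. By its title, the series is about hepatic steatosis and endothelial dysfunction, and the comparison asks what lipid loading changes in vesicle miRNAs. Vesicles purified from a culture can also come from other cells in it, and the labels give no purity of the hepatocytes. Nor do they tell apart animals or cultures within a group, so every p-value below rests on library-to-library spread that could be purely technical.

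miR-451a and miR-144 are transcribed together in erythroid precursors under the control of GATA1. miR-451a is unusual in that its short hairpin is cut by Argonaute 2 and not by Dicer, so the mature strand runs through the loop. miR-486 is made from an intron of the ankyrin gene Ank1 and is abundant in red cells, and also in muscle. miR-1 and miR-133 are expressed together in heart and skeletal muscle, whereas miR-206 is a skeletal muscle miRNA with the seed of miR-1, raised in myoblast differentiation and regenerating muscle. A seed is the stretch near the 5′ end, bases 2 to 8, that chooses target transcripts.

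The RefSeq table on GRCm38.p6 matched 3 of the 6 members, and their mature sequences are shown with the seed in capitals because the seed sets each apart in function.
miR-451a: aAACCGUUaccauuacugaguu
miR-144-3p: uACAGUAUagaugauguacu
miR-206-3p: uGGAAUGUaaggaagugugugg
No seed is shared among these 3. The next line shows the Mir451a hairpin, in which the mature strand in capitals fills bases 17 to 38 of 72 and so crosses the middle of the hairpin.
Mir451a hairpin: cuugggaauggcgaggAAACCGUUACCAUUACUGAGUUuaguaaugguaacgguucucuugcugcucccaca
In the Mir206 hairpin, the mature strand in capitals lies on the 3′ side, at bases 46 to 67 of 73.
Mir206 hairpin: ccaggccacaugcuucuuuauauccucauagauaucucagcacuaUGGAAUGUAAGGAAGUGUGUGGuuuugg

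On GRCm38, Mir451a lies on chromosome 11 at 78073170 to 78073241, plus strand. Mir144 lies 99 bases before it, at 78073005 to 78073070, and the Mir451b hairpin occupies the same bases as Mir451a on the minus strand. Mir206 lies on chromosome 1 at 20679010 to 20679082 and overlaps an exon of the long non-coding gene Gm28653, as does Mir133b 3686 bases further on. Mir486, the hairpin of miR-486a, lies in an intron of Ank1 on chromosome 8, at 23142555 to 23142682 on the plus strand. Mir3107, the hairpin of miR-486b, lies inside it at 23142573 to 23142662 on the minus strand.

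Each deposited value is log2(adjusted count + 1), where counts appear to have been adjusted to 1 library size, and whole reads were recovered by undoing that step. PA libraries held 613517 to 799043 reads and control libraries 95299 to 658089. miR-122, the dominant hepatocyte miRNA, counted here with the overlapping miR-122b, took 11.7% to 15.3% of PA reads and 69.2% to 87.7% of control reads, which left 534330 to 676730 other reads in PA libraries and 29367 to 80807 in control libraries. A level is therefore given on 3 scales: the deposited value, reads scaled to a library total of 1000000 (RPM), and reads scaled to the same total of reads outside miR-122 (RPM outside miR-122). Replicates of a group differed by more than sampling noise, with a chi-square per degree of freedom of 79.0 to 479. In these bulk preparations fewer vesicles that carry a miRNA and fewer copies per vesicle cannot be told apart.

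Of the 6 members, miR-451a, miR-486a-5p and miR-206-3p were found in all 6 libraries, miR-1a-3p in 1 library, and miR-144-3p and miR-133a-3p in none. All 3 miRNAs found throughout had a lower deposited value in every PA library than in every control library. miR-206-3p fell in PA vesicles under every alternative tried. The lower value of miR-486a-5p passed the test only as long as low miRNAs were filtered out and library totals were not the scale, and it had entered the test through its control libraries alone. miR-451a did not pass. How clear the difference was depended on the miRNA and on the denominator: for miR-206-3p the groups were apart on all 3 scales, for miR-451a and miR-486a-5p they overlapped in RPM. Control replicate 1 held the highest level of each of the 3 on each scale.

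**Figure D1:**
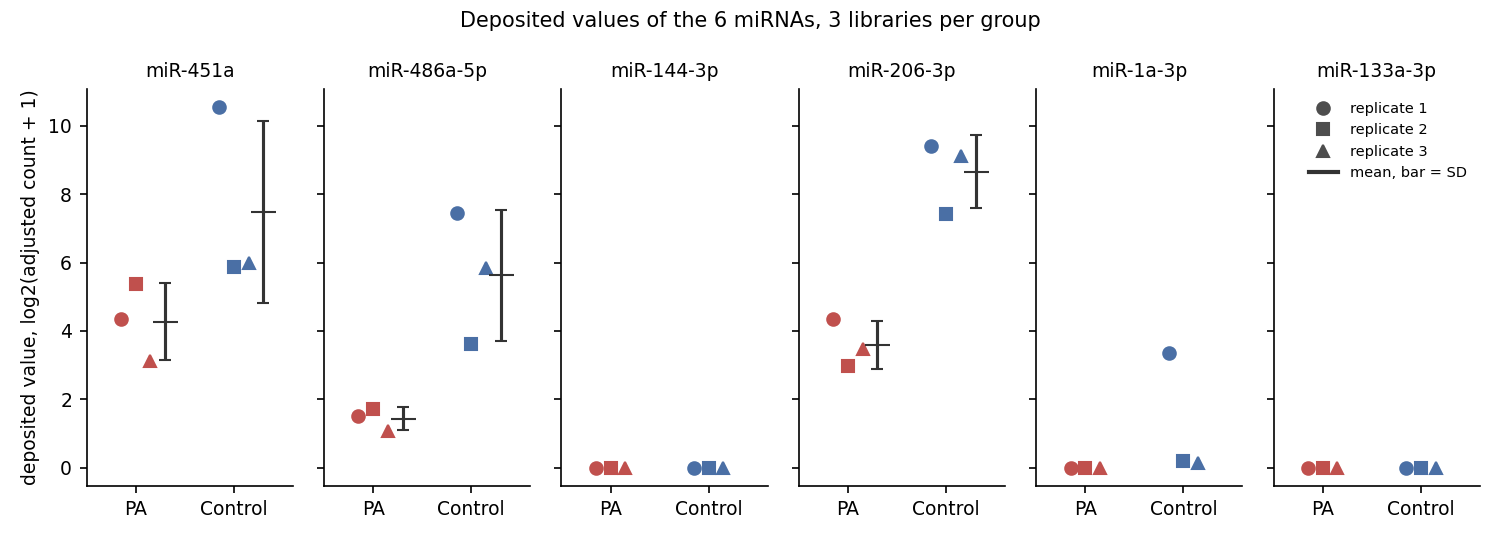
Deposited value, log2(adjusted count + 1), of each of the 6 miRNAs in 3 PA and 3 control libraries, 1 point per library, with the mean and SD where all 6 libraries hold reads. miR-206-3p lies between 2.97 and 4.35 with PA and between 7.43 and 9.42 in controls, while miR-144-3p and miR-133a-3p are at 0 throughout.

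miR-451a, the red cell miRNA cut by Argonaute 2, had 40, 115 and 13 reads in PA replicates 1, 2 and 3, against 486, 21 and 29 reads in control replicates 1, 2 and 3. Its deposited values were 4.35, 5.36 and 3.11 in PA vesicles and 10.55, 5.87 and 6.00 in control vesicles. On that scale every PA library was lower than every control library, but PA replicate 2 and control replicate 2 stood only a short way apart. In RPM it was at 50.1, 151 and 21.2 in PA libraries and at 5100, 31.9 and 115 in control libraries. There PA replicate 2 exceeded control replicates 2 and 3, and control replicate 1 alone stood far above the rest. The 95% Clopper-Pearson interval of PA replicate 2 was 125 to 181 RPM and that of control replicate 2 was 19.8 to 48.8 RPM, so the order of these 2 libraries was beyond counting error. The interval of control replicate 3, 76.9 to 165 RPM, overlapped that of PA replicate 2, so the order of that pair was within counting error. Such intervals and limits cover counting error only, because PCR copies are not separate molecules. In RPM outside miR-122, miR-451a stood at 59.1, 171 and 24.3 in PA libraries and at 16549, 260 and 551 in control libraries, again with no overlap.

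The log2 change of miR-451a (PA minus control) was -3.20 (SE 1.35, 95% interval -6.32 to -0.08), over a test of 181 miRNAs. limma gave an unadjusted p = 0.0456 and a Benjamini-Hochberg adjusted p = 0.0764. Without control replicate 1 the change was -1.66 (limma adjusted p = 0.131). Over all alternatives it lay between -4.38 and -1.66, with adjusted p from 0.00183 to 0.308, and the threshold of 0.05 was passed in 6 of 18. The mean level in RPM was 74.1 ± 68.2 in PA libraries and 1749 ± 2902 in control libraries (SD, n = 3 each), with an exact two-sided permutation p = 0.5 on log2 RPM. The difference of mean log2 RPM was -2.29 with all libraries, -0.16 without control replicate 1 and -3.82 without control replicate 2.

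miR-486a-5p, the Ank1 intronic miRNA, had 4, 7 and 2 reads in PA replicates 1, 2 and 3, against 57, 4 and 26 reads in control replicates 1, 2 and 3. Its deposited values were 1.51, 1.72 and 1.07 in PA vesicles and 7.44, 3.61 and 5.83 in control vesicles. The groups did not overlap on that scale, and control replicate 2 was the lowest control. In RPM it was at 5.01, 9.19 and 3.26 in PA libraries and at 598, 6.08 and 103 in control libraries. Control replicate 2 thus fell among the PA libraries, and its 95% interval of 1.66 to 15.6 RPM covered all 3 PA values. In RPM outside miR-122 the levels were 5.91, 10.4 and 3.74 in PA libraries and 1941, 49.5 and 494 in control libraries, with no overlap.

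To be tested, a miRNA needed an adjusted count of 10 in at least 3 libraries. miR-486a-5p reached this in 0 PA and 3 control libraries, so the filter fixed its direction and its p-value is not evidence of a fall. Its log2 change (PA minus control) was -4.20 (95% interval -6.38 to -2.01, SE 0.95), with a limma adjusted p of 0.00557. The deposited value was lower in 3 of 3 PA libraries than in any control library, which did not hold in RPM. With library totals as the scale the change was -3.57 and did not pass (limma adjusted p = 0.0670). It did not pass with no filter on low values either (adjusted p = 0.0560, from 7.4e-04 to 0.0670 over its 16 alternatives). The exact permutation test of log2 RPM gave p = 0.2, with means of 5.82 ± 3.05 RPM in PA libraries and 236 ± 318 RPM in control libraries (SD, n = 3 each).

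Because the hairpins of miR-486a and miR-486b lie on opposite strands of the same bases, their reads were set side by side. miR-486b-5p had 2, 5 and 3 reads in PA replicates 1, 2 and 3, against 59, 1 and 29 reads in control replicates 1, 2 and 3. Over all libraries the pair held 100 reads (miR-486a-5p) and 99 reads (miR-486b-5p), and their 3p arms held 19 and 20. The copies ran in parallel across libraries, so the assignment of a read to either is uncertain and they are not separate markers with certainty. miR-486b-5p missed the filter, with an adjusted count of 10 in 0 PA and 2 control libraries. When the adjusted counts of both were summed, the log2 change was -4.40 (limma adjusted p = 0.0125).

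**Figure D2:**
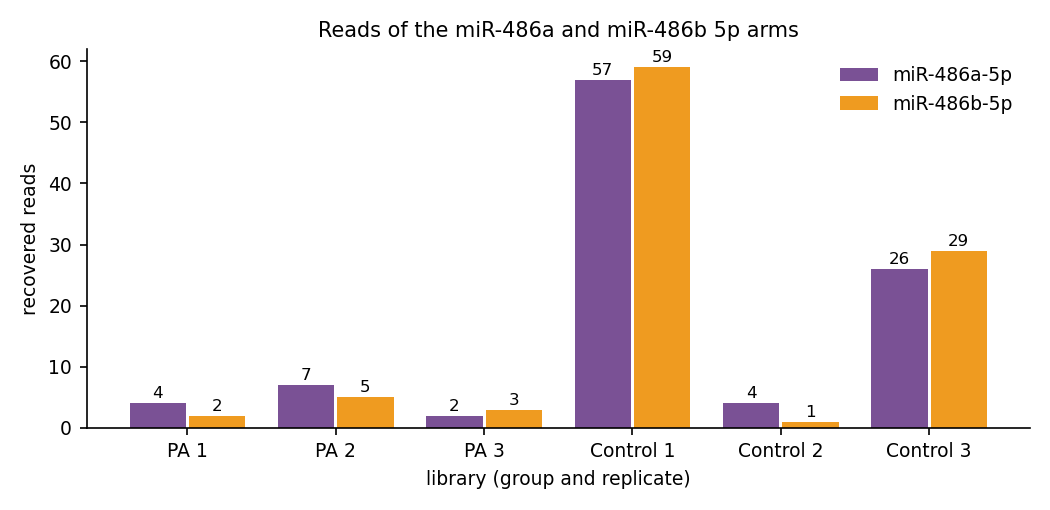
Recovered reads of miR-486a-5p and miR-486b-5p in each library, PA libraries on the left and control libraries on the right. The 2 bars of a library differ by few reads, with 57 and 59 reads in control replicate 1 and 26 and 29 in control replicate 3. Control replicate 2 holds 4 and 1, and PA libraries hold 7 reads or fewer of either.

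miR-144-3p, the cluster partner of miR-451a, was listed at 0 in all 6 libraries. The floor of 3 reads allows a level of up to 3.75 to 4.89 RPM in PA libraries and up to 4.56 to 31.5 RPM in control libraries. In control replicate 1 the limit for miR-144-3p was 31.5 RPM, beside 5100 RPM of miR-451a. Its other arm, miR-144-5p, had 0 reads in the PA libraries and 0, 0 and 3 reads in control replicates 1, 2 and 3, and miR-451b on the opposite strand had none in either group. Levels of different miRNAs also depend on how well each is ligated and counted, so the ratio of the partners in the cells was not measured here.

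miR-206-3p, the skeletal muscle miRNA, had 40, 20 and 17 reads in PA replicates 1, 2 and 3, against 221, 63 and 258 reads in control replicates 1, 2 and 3. Its deposited values were 4.35, 2.97 and 3.46 in PA vesicles and 9.42, 7.43 and 9.12 in control vesicles. Every control library exceeded every PA library by at least 3 log2 units. In RPM it was at 50.1, 26.3 and 27.7 in PA libraries and at 2319, 95.7 and 1022 in control libraries. Here too the groups did not overlap, and control replicate 2 was the control nearest to the PA libraries. In RPM outside miR-122 the levels were 59.1, 29.8 and 31.8 in PA libraries and 7525, 780 and 4903 in control libraries.

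miR-206-3p fell in PA vesicles, with a log2 change (PA minus control) of -5.06 (95% interval -6.91 to -3.21, SE 0.80). The limma adjusted p was 0.00105, and the level was lower in 3 of 3 PA libraries on each of the 3 scales. It reached the filter in 1 PA and 3 control libraries, and with no filter its adjusted p was 0.0136. Only miR-423-3p had a lower log2 change among the 181 tested miRNAs. The call held under all 18 alternatives, with a change between -6.29 and -4.16 and limma adjusted p from 5.4e-06 to 0.0240. Most of these alternatives reused the same filter, and all drew on the same libraries, so they are no separate evidence. Its mean was 34.7 ± 13.3 RPM in PA libraries and 1146 ± 1117 RPM in control libraries (SD, n = 3 each). The exact permutation p on log2 RPM was 0.1, the smallest that 3 libraries against 3 allow. The difference of mean log2 RPM was -4.20, and -6.32 with reads outside miR-122 as the denominator.

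The other muscle miRNAs were nearly absent. miR-1a-3p had 0 reads in all 3 PA libraries and 4, 0 and 0 reads in control replicates 1, 2 and 3, which is 42.0 RPM (95% Clopper-Pearson interval 11.4 to 107) in control replicate 1. Its deposited values of 0.18 and 0.14 in control replicates 2 and 3 come from the adjustment and stand for no read. miR-1a-3p missed the filter, and in the unfiltered fit its change was -1.23 (95% interval -3.76 to 1.31, limma adjusted p = 0.469). miR-133a-3p, expressed together with miR-1 in muscle, was listed at 0 in all 6 libraries, with the same limits as miR-144-3p. miR-133b-3p, whose hairpin neighbours Mir206, was also at 0 throughout. miR-133a-5p had 1 read, in PA replicate 1, and miR-1b-5p had 1 read, in PA replicate 2. miR-206-5p, miR-1a-1-5p, miR-1a-2-5p, miR-1b-3p, miR-133b-5p and miR-133c had none.

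Of 9 rows on a list of striated muscle miRNAs, 6 had no read in any library, among them the heart and slow muscle miRNAs miR-208a-3p, miR-208b-3p and miR-499-5p. For comparison, 51.9% of all 1976 rows had no read. The list summed to 26.3 to 51.3 RPM in PA libraries and to 95.7 to 2361 RPM in control libraries, nearly all of it miR-206-3p. With the defining markers miR-1a-3p and miR-133a-3p at or near 0, the name of the list rests here on miR-206-3p alone. Of 7 rows on the erythroid list, 6 held reads. They were miR-451a, the arms of the overlapping miR-486a and miR-486b, and miR-144-5p with 3 reads in control replicate 3. The name of that list thus rests on miR-451a and on miR-486, which is abundant in muscle too. The list summed to 29.3 to 169 RPM in PA libraries and to 39.5 to 6464 RPM in control libraries.

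Of the 3 tested members, 2 were lower and 0 higher, and their median log2 change was -4.20. Over all 181 tested miRNAs 14.4% were called lower and 42.0% higher (56.4% in either direction), with a median change of 1.94, and 2 of the 3 members had reached the filter with at most 1 PA library. Relative to that median the change was -5.14 for miR-451a, -6.13 for miR-486a-5p and -7.00 for miR-206-3p. Every PA library lay below every control library for 3 of 3 tested members on the deposited scale, where this held for 19.3% of tested miRNAs. For miR-486a-5p the filter had fixed this outcome, because it passed with 0 PA and 3 control libraries, so its separation there adds no support. In RPM it held for miR-206-3p alone, against 6.08% of tested miRNAs, and outside miR-122 for 3 of 3, against 28.7%. Outside miR-122, too, miR-486a-5p adds no support, because its control libraries alone had admitted it to the test.

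**Figure D3:**
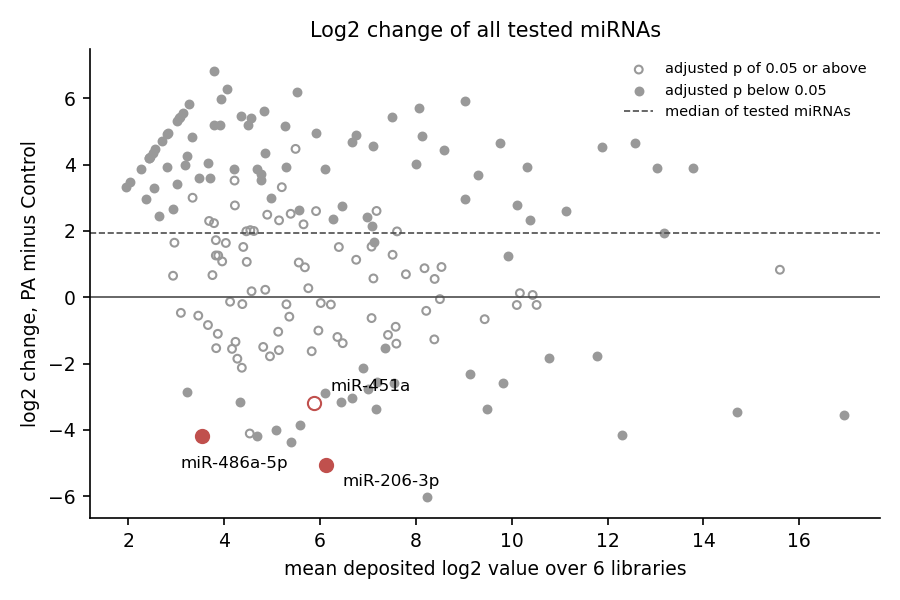
Log2 change (PA minus control) of the 181 tested miRNAs against their mean deposited log2 value over 6 libraries, filled where the limma adjusted p is below 0.05, with the 3 tested members in red. miR-206-3p at -5.06 and miR-486a-5p at -4.20 are filled and lie near the lower edge, while miR-451a at -3.20 is open, and the dashed line marks the median change of 1.94.

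Replicate spread differed between the members. The SD of the deposited log2 values of miR-451a was 1.13 in PA libraries and 2.67 in control libraries, against medians of 0.45 and 1.07 over the tested miRNAs. It ranked 6 by PA spread and 19 by control spread among the 181. miR-486a-5p had an SD of 0.33 in PA libraries and 1.92 in control libraries, and miR-206-3p 0.70 in PA libraries and 1.07 in control libraries. miR-206-3p thus varied among controls as much as the median tested miRNA, and miR-451a far more. By read number, miR-451a ranked 155, 119 and 195 among miRNAs in PA replicates 1, 2 and 3, and 13, 80 and 77 in control replicates 1, 2 and 3. miR-206-3p ranked 155, 202 and 178 in the PA replicates and 27, 49 and 28 in the control replicates.

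The members did not keep a fixed ratio to each other. miR-206-3p had 1.0, 0.174 and 1.31 reads per read of miR-451a in PA replicates 1, 2 and 3, and 0.455, 3.0 and 8.90 in control replicates 1, 2 and 3. Control replicate 1 was thus richest in miR-451a relative to miR-206-3p among the controls, and control replicate 3 poorest. Within the erythroid set, miR-451a had 6.67, 9.58 and 2.60 reads per read of the summed miR-486 5p arms in the PA replicates. In the control replicates it had 4.19, 4.20 and 0.527. Those arms held 6, 12 and 5 reads in the PA replicates and 116, 5 and 55 in the control replicates. Ratios to 12 reads or fewer are loose from counting error alone. Control replicate 3 was the only library with fewer miR-451a than miR-486 reads.

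**Figure D4:**
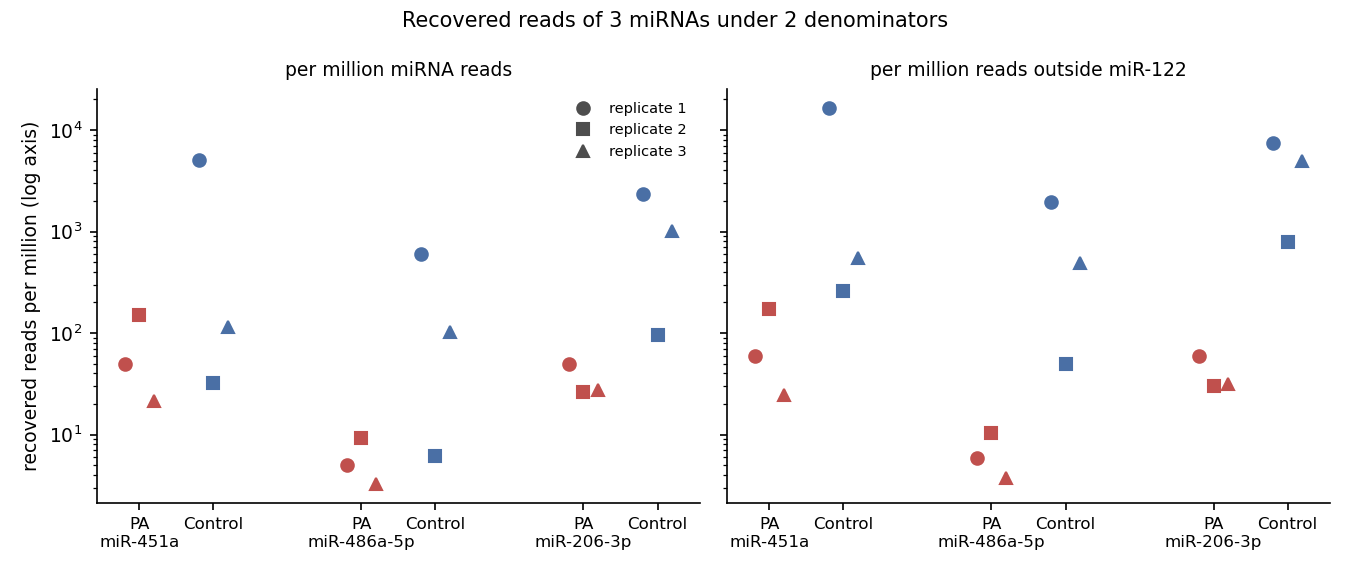
Recovered reads of miR-451a, miR-486a-5p and miR-206-3p on a log axis, in RPM (left) and in RPM outside miR-122 (right), 1 point per library with its replicate number by shape. For miR-451a, PA replicate 2 at 151 RPM lies above control replicates 2 and 3 (31.9 and 115 RPM) on the left, and at 171 lies below both (260 and 551) on the right.

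Summed over the erythroid members, the level was 55.1, 160 and 24.4 RPM in PA replicates 1, 2 and 3 and 5698, 38.0 and 218 RPM in control replicates 1, 2 and 3. The groups overlapped, with an exact permutation p = 0.4 on log2 RPM, and the difference of mean log2 RPM of -2.59 became -0.60 without control replicate 1 and -4.22 without control replicate 2. Summed over the striated muscle members, the level was 50.1, 26.3 and 27.7 RPM in the PA replicates and 2361, 95.7 and 1022 RPM in the control replicates. These groups did not overlap (exact permutation p = 0.1), and the difference was -4.21, or -3.24 without control replicate 1.

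Markers of other cell types were read beside the members. Leukocyte and platelet miRNAs (6 listed, 2 tested, 0 higher and 1 lower) summed to 202 to 398 RPM in PA libraries and to 206 to 1616 RPM in control libraries. The 1 called lower was miR-146a-5p, known from immune cells, with a log2 change of -2.13 (limma adjusted p = 0.0332). It had 129, 145 and 92 reads in PA replicates 1, 2 and 3 and 130, 157 and 41 reads in control replicates 1, 2 and 3. Like the 3 tested members, its deposited values did not overlap, at 5.69 to 6.00 in PA libraries and 6.49 to 8.73 in control libraries. In RPM its groups overlapped, at 161, 190 and 150 in the PA replicates and 1364, 239 and 162 in the control replicates. The other tested one, miR-155-5p of activated immune cells, had 63, 145 and 26 reads in the PA replicates and 17, 1 and 0 in the control replicates and was not called. The remaining 4 were scarce. miR-223-3p, abundant in neutrophils and platelets, had 0, 6 and 0 reads in PA replicates 1, 2 and 3 and none in controls. miR-142a-3p, found across blood cells, had 1, 6 and 6 reads in the PA replicates and 0, 0 and 4 in the control replicates. Its other arm, miR-142a-5p, had 1, 0 and 0 reads in the PA replicates and 7, 0 and 0 in the control replicates. miR-150-5p, a lymphocyte miRNA, had 2, 1 and 0 reads in the PA replicates and 0, 0 and 7 in the control replicates. Endothelial miRNAs (2 listed, 1 tested, 0 called) summed to 3742 to 4955 RPM in PA libraries and to 866 to 3423 RPM in control libraries. Stellate cell and fibroblast miRNAs (4 listed, 2 tested, 0 called) summed to 462 to 598 RPM in PA libraries and to 158 to 2172 RPM in control libraries. Neuronal miRNAs (2 listed, 0 tested) summed to 0 to 12.5 RPM in PA libraries and to 0 to 2749 RPM in control libraries. Nearly all of it was miR-9-5p, with 10, 0 and 1 reads in the PA replicates and 256, 0 and 92 in the control replicates. In control replicate 1 its 2686 RPM exceeded the 2319 RPM of miR-206-3p. Hepatocyte miRNAs (7 listed and tested, 3 higher and 1 lower) summed to 308297 to 464647 RPM in PA libraries and to 637446 to 825375 RPM in control libraries. The part of other cells, or of the lower depth outside miR-122 in controls, in the members' levels was not tested.

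The tested miRNAs with the pattern most like each member were named by Pearson's r of the deposited log2 values over the 6 libraries, as a description. For miR-451a they were miR-486a-5p (r = 0.89), miR-199a-3p (0.87) and miR-199b-3p (0.86), the last 2 known from fibroblasts and stellate cells. For miR-486a-5p they were miR-199a-3p (r = 0.99), miR-2137 (0.98) and miR-674-3p (0.98). For miR-206-3p they were miR-128-3p (r = 0.99), miR-674-3p (0.99) and miR-6239 (0.98). Each of these was itself called lower, with log2 changes of -3.86, -4.37 and -4.16 (limma adjusted p = 0.00542, 0.00483 and 1.5e-04). Not called were miR-199a-3p, miR-199b-3p and miR-2137. The 6 points share the split between groups and the library factors, which enter every such r.

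**Figure D5:**
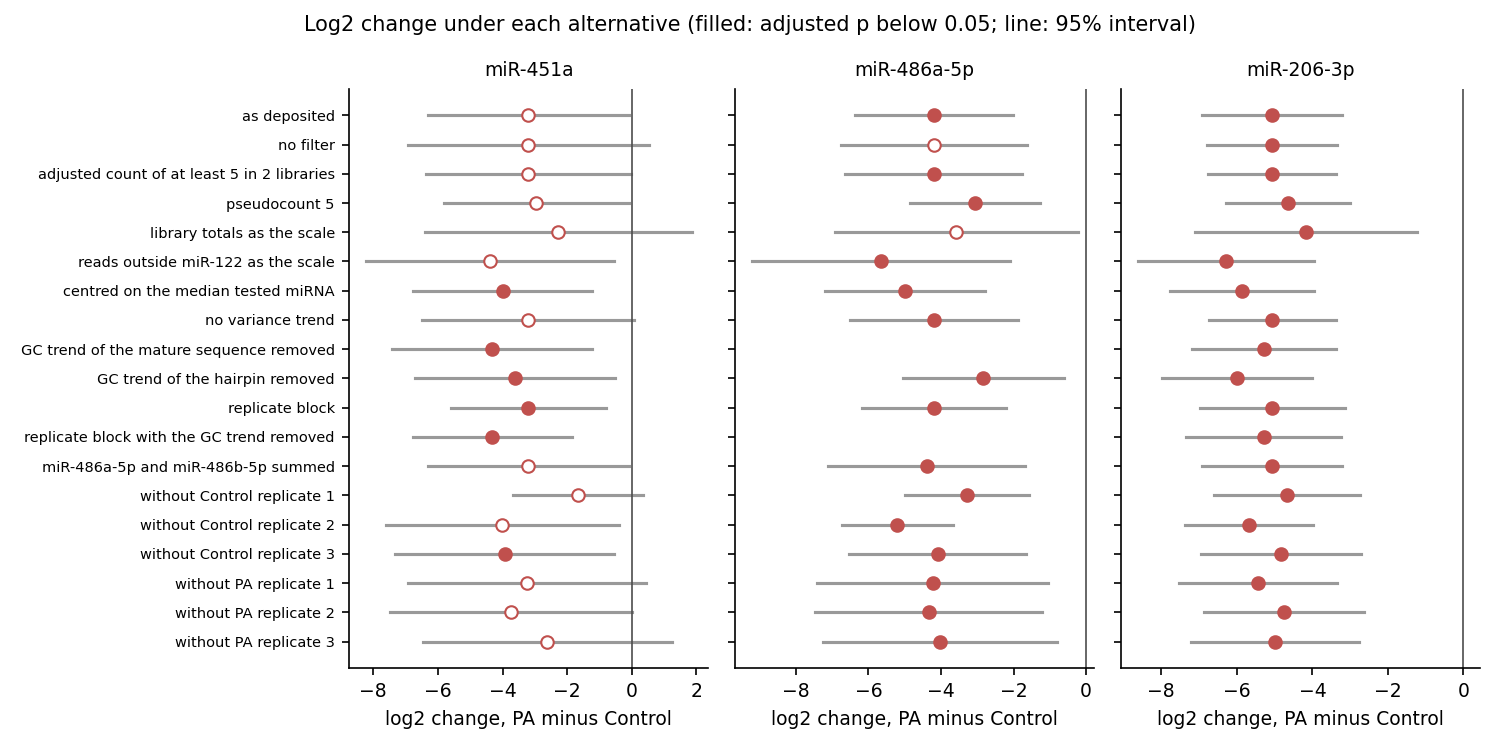
Log2 change (PA minus control) of miR-451a, miR-486a-5p and miR-206-3p as deposited and under each alternative, with the 95% interval as a line and the point filled where the limma adjusted p is below 0.05. miR-206-3p is filled throughout, between -6.29 and -4.16, miR-486a-5p is open with no filter and with library totals as the scale, and miR-451a is filled in 6 of 18 alternatives.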

How the data were processed

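Bowtie2, bedtools and the mouse builds mm10 and GRCm38 are named in the submitters' processing notes, without roles. The miRNA annotation and how reads were counted are not stated there. Per the labels' protocols, Trizol RNA went into a NEBNext small RNA kit. The deposited table is named as raw counts, but its values are log2 and not whole. They were matched, from the values, by log2(adjusted count + 1), with counts moved between negative binomial quantiles to 1 library size (dispersion 1.39, library factors 2.05, 2.86 and 1.69 for PA and 0.322, 0.369 and 0.464 for control replicates 1 to 3). No label states this step. Of 1976 rows, 918 are at 0 throughout, and 108 hold positive values without a recovered read, so the adjustment may have included libraries not analysed here. Inverting it gave whole reads for 99.9% of 1936 values within 0.0015 log2 units, tested where adjacent read numbers differed by over 0.02. On simulated data of 1058 rows, 99.9% of read numbers were recovered.

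limma 3.58.1 (R 4.3.3) with a variance trend and a group term was run on the deposited log2 values of the 181 miRNAs that reached an adjusted count of 10 in 3 or more libraries, with Benjamini-Hochberg adjustment, two-sided. Fold changes on this scale understate changes of low miRNAs. On simulated data of these 181 miRNAs, 90 of them shifted, 11% were called at a log2 shift of 1, 47% at 2 and 83.5% at 4. Of the calls, 3.85% fell on unshifted miRNAs. The noise was drawn separately for each miRNA, and shifts went up or down at random. The real data had a median change of 1.94 and unlike library factors between groups, so these rates may not hold for them. Named were the 6 members, other arms and copies of their hairpins, listed markers, and the 3 tested miRNAs closest to each tested member. Positions are from GENCODE M21, sequences from RefSeq. The members and lists were chosen with earlier results of these data known.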

Additional observations from a re-analysis of the deposited data

How the results depend on the processing

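The 3 tested members kept their negative direction under every alternative run, the miR-206-3p call held in all 18 and the miR-486a-5p call in 14 of 16. For miR-486a-5p neither is evidence of a fall, because the filter had fixed its direction. The miR-486a-5p call was lost with no filter (-4.20, adjusted p = 0.0560) and with library totals as the scale (-3.57, adjusted p = 0.0670). miR-451a, not called as deposited, passed when libraries were centred on the median tested miRNA (-3.99, limma adjusted p = 0.0195), with the GC trend of the mature sequence (-4.32, 0.0239) or of the hairpin (-3.62, 0.0481) removed, with the replicate block (-3.20, 0.0222), with the replicate block and GC trend together (-4.32, 0.00183), and without control replicate 3 (-3.94, 0.0475). The cause was not tested. Leaving out 1 library moved the change of miR-451a between -4.00 and -1.66, of miR-486a-5p between -5.20 and -3.29 and of miR-206-3p between -5.68 and -4.68. Same-numbered libraries had correlated deviations of 0.21, 0.15 and 0.04, too low in 1 pair to pair the samples, and not every library correlated best with its own number. The replicate block is thus no paired result. It gave 111 calls against 102. Of all tested miRNAs, 26 were called lower as deposited, 60 with no filter, 8 with library totals, 41 with reads outside miR-122 as the scale and 40 after centring. With reads outside miR-122 as the denominator the difference of mean log2 RPM was -6.32 for miR-206-3p and -6.33 for the striated muscle members together, against -4.20 and -4.21. Leaving out 1 library moved the RPM differences of -4.20 and -4.21 between -5.54 and -3.24 and between -5.55 and -3.24. The hairpin GC trend and the summed miR-486 arms were chosen after seeing the data. The mature GC trend gave no value for miR-486a-5p, which had no sequence in the table. With 3 libraries a group and few reads outside miR-122 in controls, levels near 1 to 4 reads are the least certain.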
